A study of Mus musculus with 6 samples.

Results

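The 10 photoreceptor transcription factors and cofactors described here are Nrl, Crx, Nr2e3, Otx2, Esrrb, Samd7, Samd11, Rorb, Thrb and Mef2d, regulators of rod and cone identity. They were taken by symbol, and each matched 1 row of the 32285 genes counted. The counts come from single-nucleus RNA sequencing of retinas, in which each unique molecular identifier (UMI) marks 1 captured RNA molecule. The mice were wild-type C57BL6/J, without a transgene or treatment in the labels, at 18 months of age (3 libraries) and at 3 months of age (3 libraries). The labels do not say whether a library is 1 animal or a pool, or name the sex, so the p-values measure the spread between libraries, which may be technical.

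Photoreceptor identity is set by a small network of DNA-binding proteins. OTX2 commits retinal precursors to the photoreceptor and bipolar lineages and turns on Crx, whose product, a related homeodomain protein, activates genes of both rods and cones. RORB acts before NRL, the leucine zipper protein that directs precursors to the rod fate. NRL turns on Nr2e3 and Esrrb, nuclear receptor genes of rods. NR2E3 keeps cone genes silent in rods, and ESRRB has been tied to rod energy supply and survival. SAMD7 and SAMD11 are SAM-domain partners of the polycomb repressive complex in rods. The thyroid hormone receptor gene Thrb makes the isoform that directs M cones, and MEF2D works with CRX at photoreceptor enhancers.

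On the GRCm38 build (GENCODE M21), Nrl lies on chromosome 14 from 55518978 to 55524981, Crx on chromosome 7 from 15865947 to 15879968 and Nr2e3 on chromosome 9 from 59942771 to 59960659. Otx2 lies on chromosome 14 from 48657677 to 48673819, Samd7 on chromosome 3 from 30746293 to 30767174, Samd11 on chromosome 4 from 156246966 to 156255657 and Mef2d on chromosome 3 from 88142372 to 88172086. Thrb (chromosome 14, 17660261 to 18038090), Rorb (chromosome 19, 18930605 to 19111196) and Esrrb (chromosome 12, 86361117 to 86521628) are the longest, at 377.8, 180.6 and 160.5 kb. All 10 are annotated as protein coding. Counted genes on the opposite strand overlap Otx2 (Otx2os1, 5112 bases), Thrb (Gm48321, 90772 bases) and Nr2e3 (Gm7616, 7760 bases). Others overlap Samd11 (Gm47252 over 852 bases, Noc2l over 651) and Mef2d (1700113A16Rik over 531). How strand was used in counting is not given in the sources used here, so counts of these 5 genes are uncertain to that extent. Nr2e3 also shares 3149 bases with Gm15507 on its own strand, which held 12 UMIs over all libraries.

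Because CRX is the shared activator of the network, the sequence before each start site was searched for its core motif, TAATCC or its reverse complement GGATTA. RefSeq windows (GRCm38.p6) of the 250 bases before a start were held for all 10 genes, 16 windows in all. The core was in 1 window each of Crx, Samd7, Samd11, Thrb and Otx2, and in 6.25% of all 32851 windows of this length. A related form, TAAGCC or GGCTTA, was in windows of Nrl, Samd7, Rorb, Thrb and Otx2 and in 8.2% of all windows. Neither motif was in a window of Nr2e3, Esrrb or Mef2d. The windows of 4 genes are shown because they hold CRX-type letters close to the start of the CRX gene itself, of the rod regulator Nrl and of both polycomb partners. Capitals mark either motif on either strand, written 5′ to 3′ toward the start site.
Crx, chr7:15879956-15880205, minus strand: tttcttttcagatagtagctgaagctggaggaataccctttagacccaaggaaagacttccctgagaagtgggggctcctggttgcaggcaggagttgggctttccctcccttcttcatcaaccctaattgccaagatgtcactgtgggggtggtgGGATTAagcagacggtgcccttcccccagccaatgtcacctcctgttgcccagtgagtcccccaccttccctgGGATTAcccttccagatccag
Samd7, chr3:30746043-30746292, plus strand: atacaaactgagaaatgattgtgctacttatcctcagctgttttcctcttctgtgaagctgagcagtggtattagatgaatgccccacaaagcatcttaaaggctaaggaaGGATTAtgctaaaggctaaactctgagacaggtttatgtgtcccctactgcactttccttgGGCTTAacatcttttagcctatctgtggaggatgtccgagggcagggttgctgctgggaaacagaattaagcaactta
Samd11, chr4:156255343-156255592, minus strand: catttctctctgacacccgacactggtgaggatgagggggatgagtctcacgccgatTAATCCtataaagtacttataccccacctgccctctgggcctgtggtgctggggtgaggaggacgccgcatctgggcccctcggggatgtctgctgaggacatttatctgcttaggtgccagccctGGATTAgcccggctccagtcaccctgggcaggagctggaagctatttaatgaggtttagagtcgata
Nrl, chr14:55524253-55524502, minus strand: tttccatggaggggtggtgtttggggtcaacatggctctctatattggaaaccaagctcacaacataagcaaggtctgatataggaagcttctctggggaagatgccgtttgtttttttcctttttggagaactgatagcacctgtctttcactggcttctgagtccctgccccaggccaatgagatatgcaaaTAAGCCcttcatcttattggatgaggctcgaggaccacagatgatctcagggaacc
In the Crx window the core stands 94 and 21 bases before the start. It stands 139 bases before the start in Samd7, with the related form at 78 bases. The Samd11 window holds the core at 193 and 67 bases, and the Nrl window holds the related form alone, at 56 bases. A half-site used by NRL, TGCTGA (reverse complement TCAGCA), was in windows of Samd11, Rorb, Mef2d and Otx2 and in 16.08% of all windows. The nuclear receptor half-site AGGTCA, whose reverse complement is TGACCT, was in 1 window of Thrb and in 14.02% of all windows. These are matches of letters, not measured binding.

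After filtering, 50241 nuclei remained, with 15905689 to 29340705 UMIs per library before it, and 31257 nuclei were given a class from marker genes. The members were kept out of the clustering. Rods numbered 1096, 4851 and 141 in the 18-month libraries and 470, 2945 and 1933 in the 3-month libraries, and cones 499, 466 and 72 against 547, 219 and 312. Unnamed clusters took 76.0% of 18-month replicate 3, 40.6% of 18-month replicate 2 and 12.2% to 17.8% of the others. Replicate 1 of both ages was counted with Cell Ranger 7.1.0 and the other 4 libraries with release 7.2.0, and rods and cones of the releases fell largely into separate clusters. Rods were cluster 1 (4368 of its 6085 nuclei from 18-month replicate 2), clusters 3 and 12 (mainly 3-month replicates 2 and 3) and cluster 11 (mainly release 7.1.0). Cones were cluster 15 (release 7.2.0) and cluster 16 (release 7.1.0). Median mitochondrial shares of UMIs were 1.08% to 1.35% at 18 months and 1.52% to 2.52% at 3 months, and the limit on that share removed 1.12% to 9.16% of 18-month and 9.36% to 41.9% of 3-month barcodes. Pairs of libraries shared 8 to 53 cell barcodes. Class names below stand for clusters with those markers.

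Levels were compared between classes as CPM, a gene's UMIs scaled to the UMI total of its class, within a gene only, over the 8 classes that held 20 or more nuclei per library. The rod bipolar class was uneven between releases: it held 653 nuclei of 18-month replicate 1 (median 5834 UMIs) and 682 of 3-month replicate 1 (median 4764), against 43 to 274 nuclei (medians 1364 to 1778) in each release 7.2.0 library. At Leiden resolution 2 it held 133 and 146 nuclei of the replicate 1 libraries, while an unnamed cluster with fewer than 3 markers held 545 and 527, so which nuclei it held there depended on the resolution. The mean over the 6 libraries was highest in rods for Nrl, Crx, Nr2e3, Esrrb, Samd7 and Samd11 and in cones for Thrb and Mef2d. Otx2 was highest in cone bipolar cells and Rorb in horizontal cells, so the group is not uniformly a photoreceptor group by level. The plot of levels by class shows every library.

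**Figure D1:**
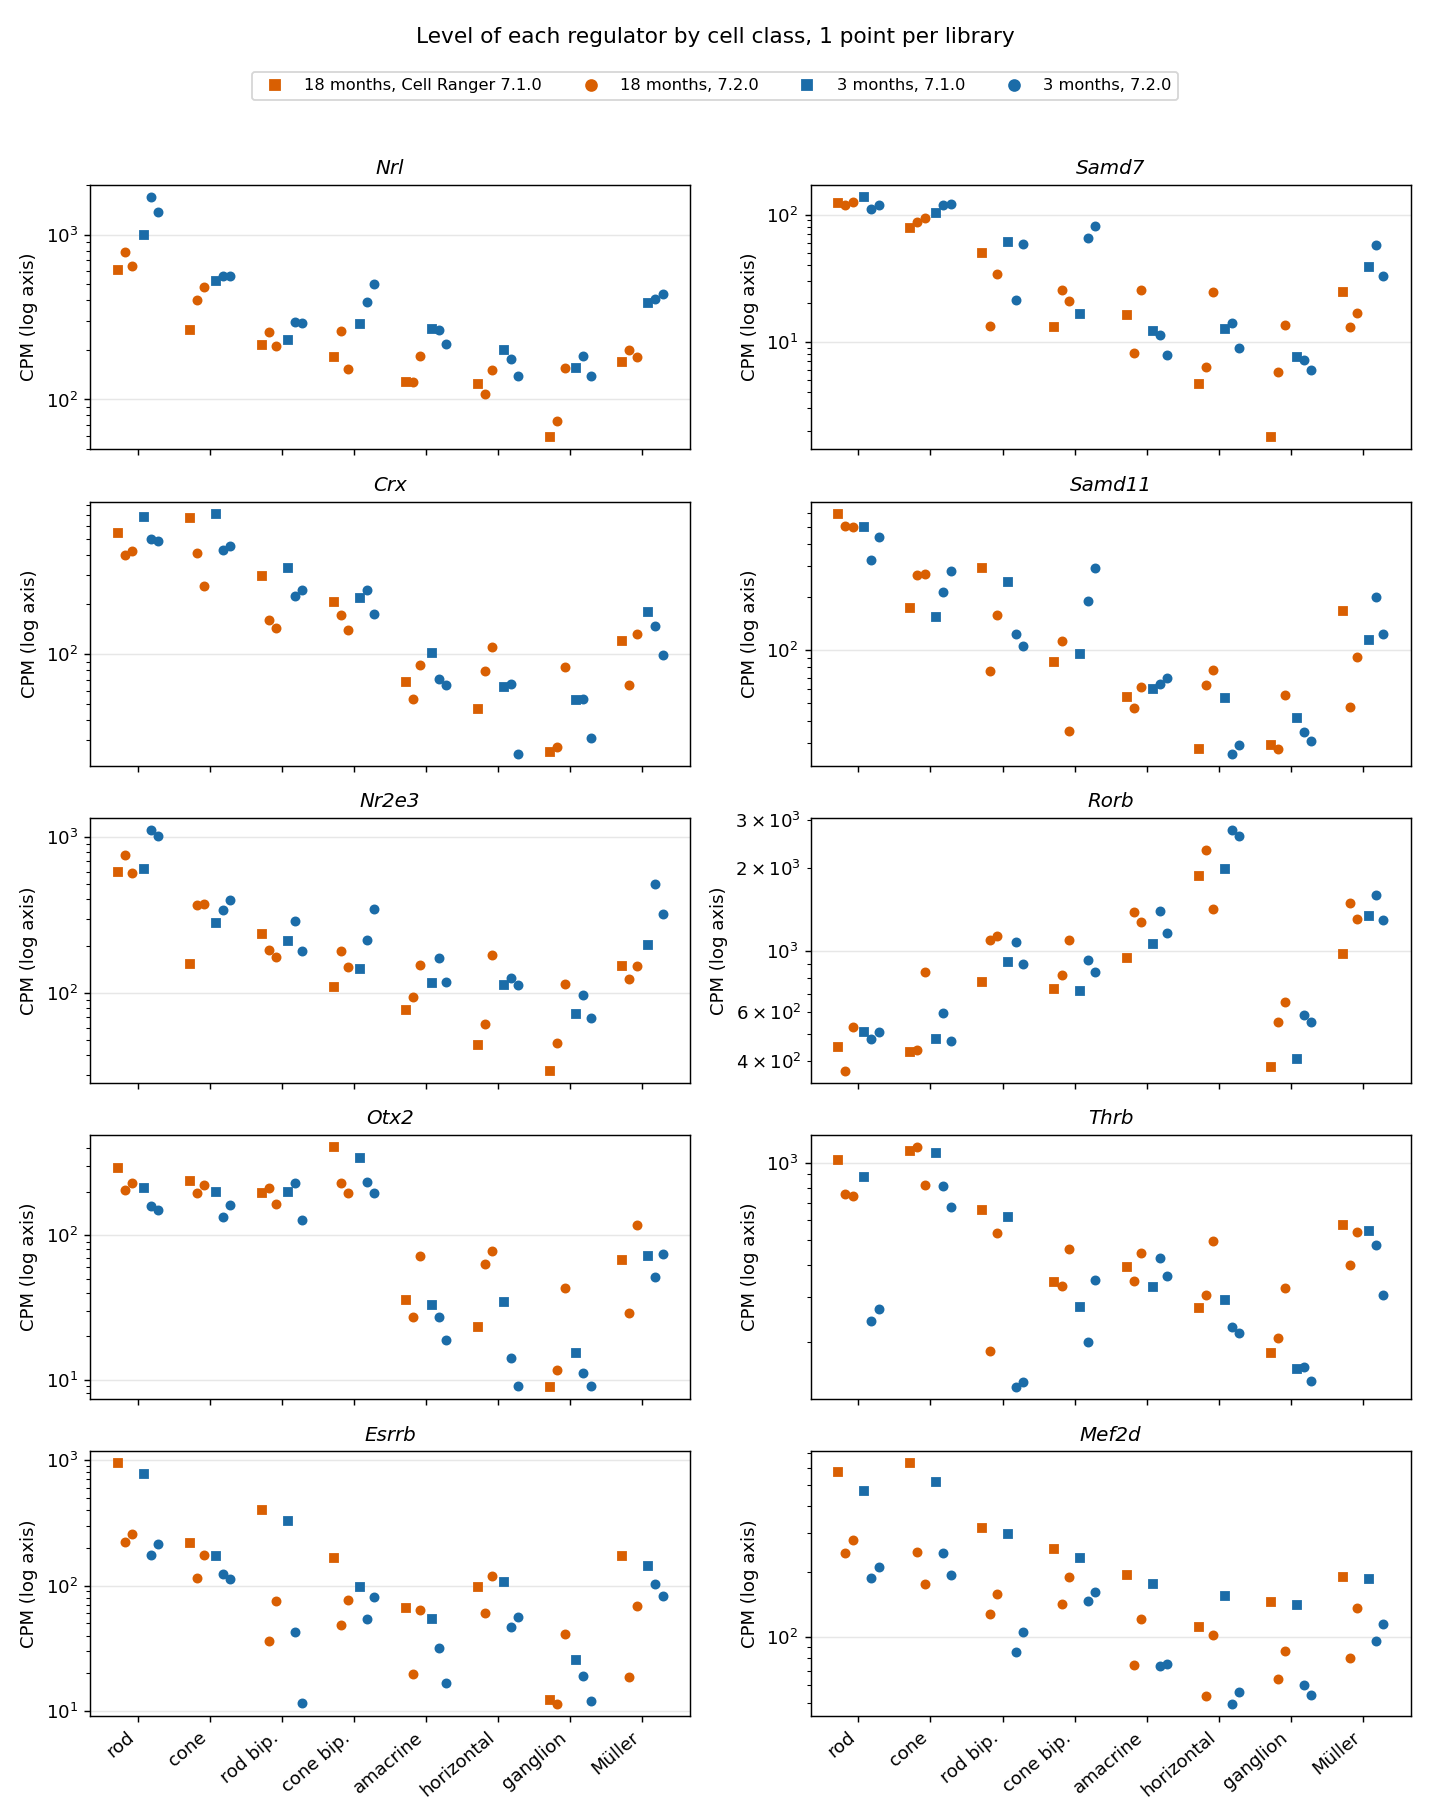
Level of each of the 10 regulators (CPM, log axis, own scale per panel) in 8 cell classes. Each point is 1 library, orange at 18 months (left) and blue at 3 months (right), squares for Cell Ranger 7.1.0 and circles for 7.2.0. Nrl, Nr2e3 and Samd11 stand higher in every rod point than in any cone point, Rorb peaks in horizontal cells, and the squares of Mef2d lie above the circles in all 8 classes.

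Among the rod-fate genes, Nrl averaged 1020 ± 435 CPM in rods (SD, n = 6, range 613 to 1695) and 466 ± 116 in cones (263 to 564). The rod range lay wholly above the cone range, and cones stood above Müller glia in 6 of 6 libraries. The means of Müller glia (297), cone bipolar cells (296), rod bipolar cells (250), amacrine cells (198), horizontal cells (150.0) and retinal ganglion cells (128) followed, with overlapping ranges at each step. Müller glia and cone bipolar cells changed places between libraries (3 of 6 each way).

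Nr2e3 followed the same order at the top, with 782 ± 224 CPM in rods (584 to 1104) and 318 ± 89.3 in cones (154 to 393), without overlap. Its lowest mean was 72.2 ± 30.4 in retinal ganglion cells. Esrrb averaged 430 ± 335 CPM in rods, 153 ± 43.1 in cones and 149 ± 169 in rod bipolar cells, and its lowest mean was 20.3 ± 11.7 in retinal ganglion cells. Rods stood above cones in 6 of 6 libraries, yet the ranges overlapped (174 to 937 in rods, 112 to 220 in cones), and the rod values split by Cell Ranger release. Cones and rod bipolar cells could not be ordered, with cones higher in 4 of 6 libraries.

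Of the homeodomain genes, Crx had nearly the same mean in rods (506 ± 99.7 CPM) and cones (488 ± 171), with rods higher in 3 of 6 libraries. Both were above rod bipolar cells (234 ± 74.0), which cones exceeded in 6 of 6 libraries. Cone bipolar cells followed at 193 ± 38.0, and the lowest mean was 45.5 ± 22.3 in retinal ganglion cells. Otx2 was spread over all photoreceptor and bipolar classes: 268 ± 88.2 CPM in cone bipolar cells, 209 ± 52.7 in rods, 192 ± 38.5 in cones and 189 ± 36.7 in rod bipolar cells. These 4 were not separable from their neighbours in the order, which held in 5, 5 and 4 of 6 libraries. A clear step followed: rod bipolar cells stood above Müller glia (68.4 ± 29.3) without overlap. With nuclei classed one by one by their markers, the highest Otx2 mean moved to rod bipolar cells (199 CPM). Outside the 8 classes, pigment epithelium, which also uses OTX2, gave 114 Otx2 UMIs of 459834, or 248 CPM, pooled over libraries with very unequal numbers of such nuclei.

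Both polycomb partners were highest in rods, and they differed in cones. Samd7 averaged 123 ± 8.78 CPM in rods (111 to 137) and 100.4 ± 17.2 in cones (77.9 to 122), with rods higher in 4 of 6 libraries. Cones in turn stood above rod bipolar cells (39.7 ± 19.8) without overlap. Samd11 averaged 475 ± 89.9 CPM in rods (322 to 592) and 226 ± 53.4 in cones (155 to 279), without overlap. Its level in rod bipolar cells was 166 ± 84.1, above or below cones depending on the library (cones higher in 4 of 6).

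Rorb ran the other way. It averaged 2166 ± 498 CPM in horizontal cells (1427 to 2751), 1339 ± 213 in Müller glia, 1206 ± 183 in amacrine cells, 983 ± 143 in rod bipolar cells and 855 ± 144 in cone bipolar cells, and each of these classes stood above the next in 6 of 6 libraries. Cones (544 ± 158), retinal ganglion cells (523 ± 107) and rods (474 ± 59.0) were lowest, and their order held in 4 of 6 libraries at each step.

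Thrb averaged 942 ± 198 CPM in cones (674 to 1152) and 653 ± 323 in rods (242 to 1020). Cones were higher in 6 of 6 libraries, with overlapping ranges. Its lowest mean was 196 ± 67.9 in retinal ganglion cells. Mef2d averaged 333 ± 190 CPM in cones and 327 ± 157 in rods, with cones higher in 4 of 6 libraries, and both means exceeded those of the other classes, which ran from 87.7 in horizontal cells to 187 in cone bipolar cells. Rods exceeded cone bipolar cells in 6 of 6 libraries.

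Free RNA can enter every droplet, so the share of nuclei with a UMI was set beside that in retinal ganglion cells, which should lack Nrl. After each nucleus was thinned to 500 UMIs, with 0 nuclei too shallow for it, Nrl was seen in 21.3% to 52.2% of rods and in 3.53% to 10.3% of retinal ganglion cells, against 47.7% to 70.2% and 21.2% to 44.2% without thinning, where the median depths were 764 to 1013 and 1326.5 to 4072 UMIs. Otx2, thinned, was seen in 6.47% to 13.9% of rods and in 0.54% to 2.08% of retinal ganglion cells, against 13.5% to 28.6% and 2.97% to 6.59% unthinned. For Nrl the thinned shares of the other classes were 13.4% to 27.9% in cones, 11.6% to 20.9% in rod bipolar cells, 8.70% to 21.6% in Müller glia, 7.5% to 23.5% in cone bipolar cells, 6.58% to 14.8% in amacrine cells and 4.69% to 10.1% in horizontal cells. The range in horizontal cells lay within that of retinal ganglion cells. How much of the Nrl level in the classes outside rods is free RNA was not tested. Samd7, thinned, was seen in 4.62% to 7.45% of rods, 3.84% to 5.48% of cones and 0.068% to 0.867% of retinal ganglion cells, against 9.61% to 14.1%, 10.8% to 13.2% and 0.722% to 2.58% unthinned. Crx, thinned, was seen in 18.0% to 30.4% of rods, 11.1% to 29.1% of cones and 1.75% to 4.51% of retinal ganglion cells, against 28.6% to 47.0%, 26.4% to 61.1% and 9.68% to 16.1% unthinned.

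Rods were next compared with cones within each library, as the difference of log2(CPM + 10). Over all 8543 genes with at least 20 CPM in either class, 13.6% were higher and 12.7% lower in rods in every library. The difference in all 6 libraries favoured rods for 4 of the 10 regulators and cones for 1. Nr2e3 differed by 1.29 ± 0.46 (SD, n = 6), Esrrb by 1.15 ± 0.74, Nrl by 1.05 ± 0.39 and Samd11 by 1.05 ± 0.50, all higher in rods, and Thrb by -0.69 ± 0.66, lower in rods. For each of these 5 the two-sided exact permutation test, flipping the signs of the 6 differences, gave p = 0.03125, the smallest it can give, and an adjusted p of 0.119 over the 8543 genes, so none passed the threshold of 0.05, nor did any gene (0%). That smallest p belongs to each gene with 1 direction in all 6 libraries. An adjusted p of 0.05 would need a far larger share of all genes at it than the 13.6% and 12.7% above. The adjusted test therefore cannot decide for any single gene here. Samd7 (0.28 ± 0.27), Crx (0.11 ± 0.34), Otx2 (0.10 ± 0.14), Mef2d (0.02 ± 0.34) and Rorb (-0.16 ± 0.30) differed in sign between libraries. With nuclei classed one by one, the differences of Esrrb and Samd11 were smaller, at 0.63 and 0.60.

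The second comparison, between the ages, used CPM normalised by the trimmed mean of M values (TMM) within a class and edgeR's quasi-likelihood test over all genes of that class. In rods Nrl stood at 577, 766 and 566 normalised CPM in the 18-month libraries and at 963, 2150 and 1524 in the 3-month libraries. The ages did not overlap. The log2 change was -1.28 (SE 0.42), with an adjusted p of 0.574, so it did not pass with age as the only term. It was -1.22 without 18-month replicate 3, and -1.46 to -0.98 with any 1 library left out. None of the 10 regulators was called in rods, where 0% of 11472 genes were called. In that class 778 genes had an unadjusted p under 0.05, and DESeq2 called 6 genes, none of them a member. With a term for the Cell Ranger release, 1012 genes (8.82%) were called, and Nrl was the 1 regulator among them, at -1.21 (SE 0.29, adjusted p = 0.0292). With the replicate number as a block, Nrl was the 1 regulator called, at -1.22 (edgeR adjusted p = 0.0297), among 757 genes (6.6%, with 4.71% lower and 1.89% higher). Replicate 1 is the release 7.1.0 library of each age, so the block contains the release split and is not a separate check on it. The labels do not say that same-numbered libraries belong together. In rods the deviations of 18-month replicate 3 correlated at 0.103 with 3-month replicate 3 and at 0.148 with 3-month replicate 2.

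**Figure D2:**
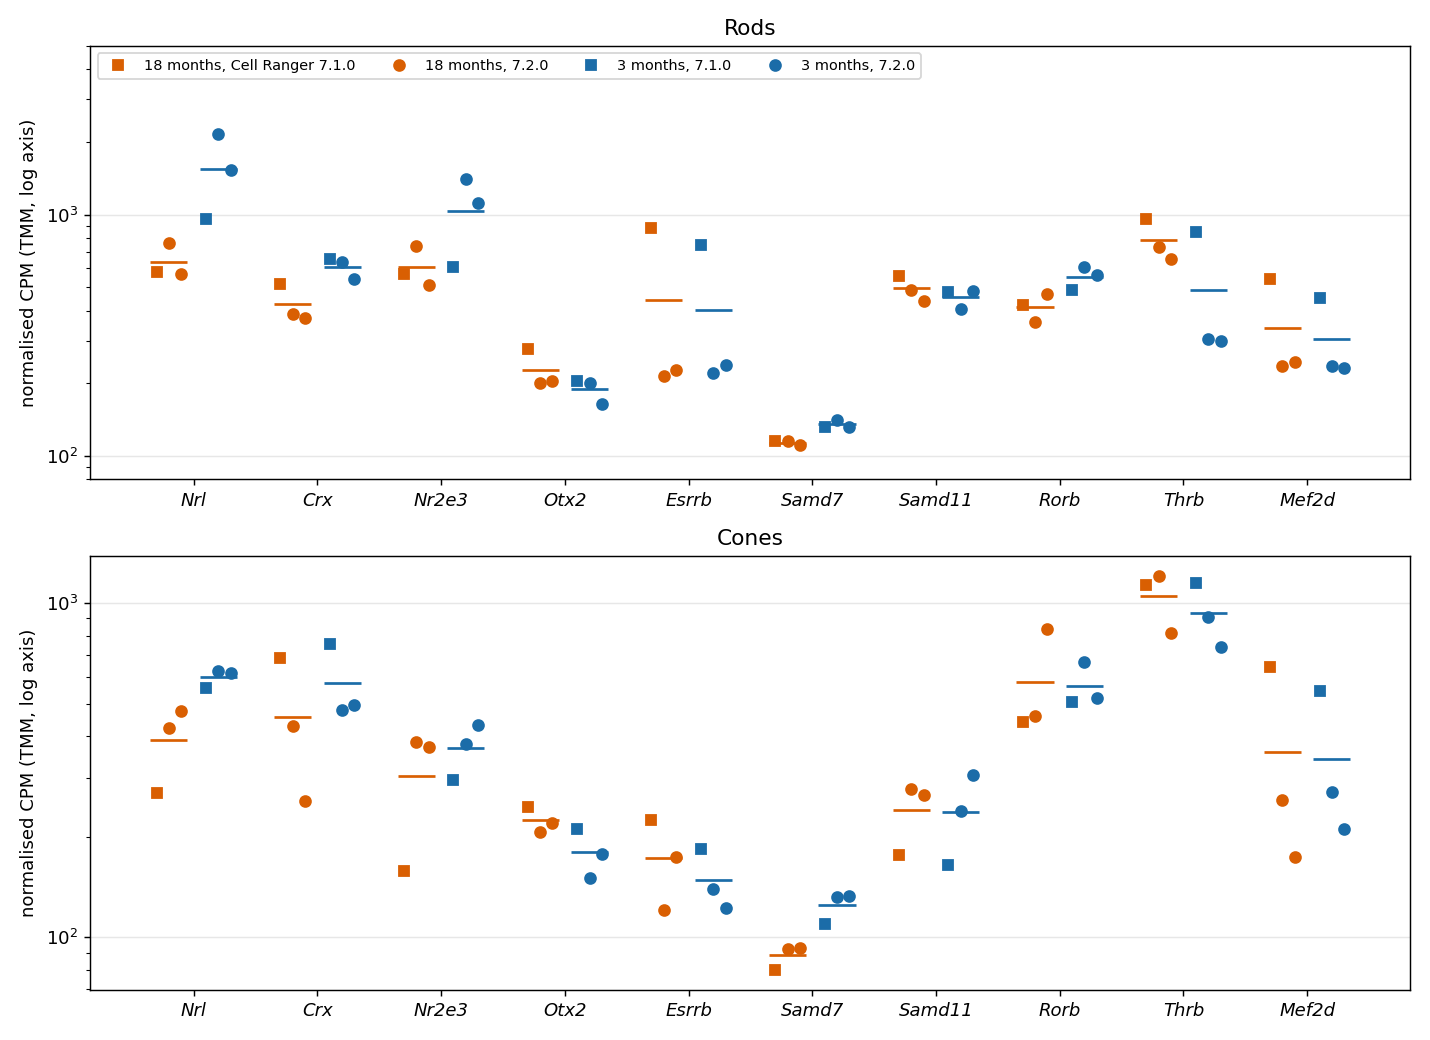
Normalised CPM (TMM, log axis) of the 10 regulators in rods and cones. Each point is 1 library, orange at 18 months (left) and blue at 3 months (right), squares for Cell Ranger 7.1.0 and circles for 7.2.0, and lines mark means of 3. In rods Nrl, Crx, Samd7 and Rorb do not overlap between the ages, and Esrrb, Thrb and Mef2d are higher in both squares than in all 4 circles.

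The Nrl values of other classes moved alongside. Nrl was also lower at 18 months without overlap in cones, cone bipolar cells, amacrine cells, horizontal cells and Müller glia, though on plain CPM it overlapped in horizontal cells. The shares of all genes lower without overlap were 3.31% in cones, 3.59% in cone bipolar cells, 3.03% in amacrine cells, 5.74% in horizontal cells and 3.98% in Müller glia. In rod bipolar and retinal ganglion cells, where Nrl overlapped, they were 1.71% and 2.5%. Thinned to 500 UMIs, 21.3% to 32.1% of 18-month rods and 41.7% to 52.2% of 3-month rods had an Nrl UMI, against 3.53% to 7.89% and 7.49% to 10.3% of retinal ganglion cells. Without thinning the shares were 47.7% to 49.6% of 18-month rods and 58.7% to 70.2% of 3-month rods. The part of free RNA, and of the mitochondrial share, in the rod result was not tested.

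The rod clusters also differed in Nrl, and the ages did not draw on them equally. In cluster 1, which every library contributed to, Nrl stood at 958, 769 and 650 CPM at 18 months and at 1247, 931 and 966 CPM at 3 months. The libraries gave it 56, 4368 and 128 nuclei at 18 months and 42, 634 and 857 at 3 months, so some of these values rest on few nuclei. The Nrl values of the ages overlapped, and rods of this cluster alone gave a log2 change of -0.41 (edgeR adjusted p = 0.832, 0.102% of 6885 genes called). In cluster 3 it stood at 1017 CPM in 18-month replicate 2, the 1 old library with 20 or more nuclei there, against 2071, 1582 and 1319 CPM in the 3-month libraries. The value of 2071 CPM, from 3-month replicate 1, rests on 46 nuclei. In cluster 11 Nrl stood at 581 and 613 CPM in 18-month replicates 1 and 2 (1030 and 45 nuclei). It stood at 849 CPM there in 3-month replicate 1 (380 nuclei). Cluster 12, which 18-month libraries hardly entered, had the highest values, 2148 and 2107 CPM in 3-month replicates 2 and 3. How far the makeup of the rod class and the level within a rod each contribute cannot be told apart here.

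**Figure D3:**
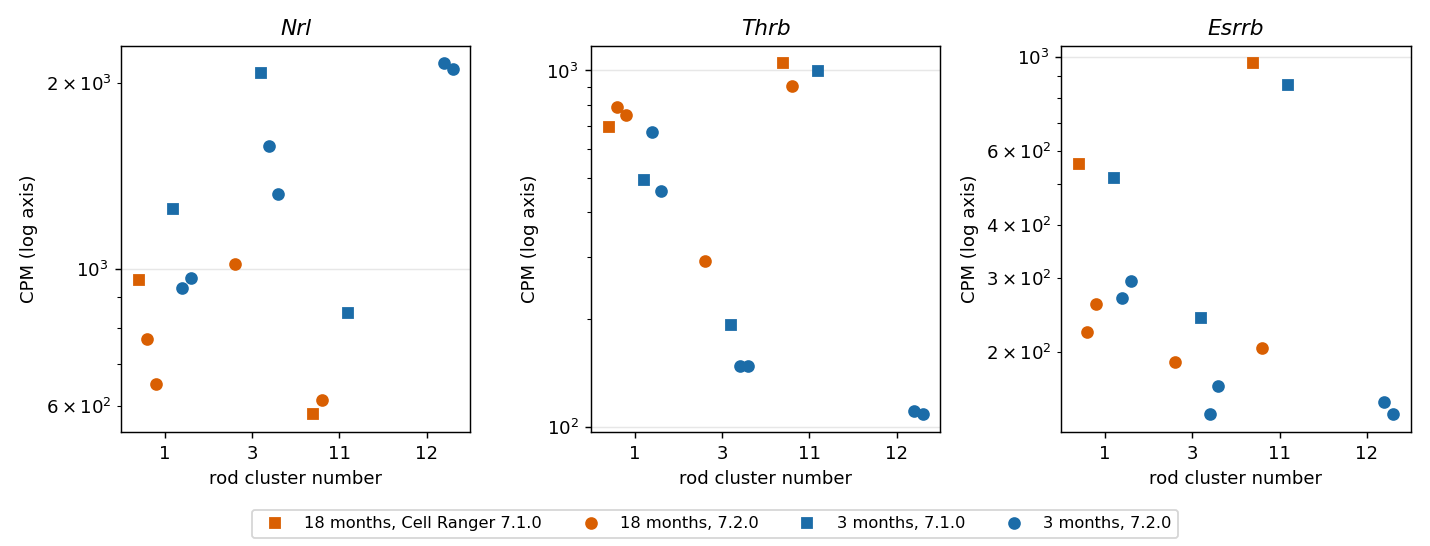
CPM (log axis) of Nrl, Thrb and Esrrb in the 4 rod clusters. Each point is 1 library with at least 20 nuclei in that cluster, orange at 18 months (left) and blue at 3 months (right), squares for Cell Ranger 7.1.0 and circles for 7.2.0. Nrl is highest and Thrb lowest in cluster 12, which holds 3-month nuclei, and the squares of cluster 11 are the highest Esrrb values.

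Of the other rod regulators, 3 also did not overlap between the ages, all lower at 18 months. With Nrl that makes 4 of 10, against 6.57% of the genes of this class lower and 5.53% higher without overlap. This count depends on the TMM factors: on plain CPM Samd7, Crx and Rorb overlapped and Nrl was the 1 regulator without overlap. Samd7 had normalised CPM of 116, 115 and 111 at 18 months, against 132, 141 and 132 at 3 months, a log2 change of -0.25 (SE 0.27, edgeR adjusted p = 0.702). On library size alone, without TMM factors, Samd7 was at 0.0013. Crx stood at 515, 386 and 373 at 18 months and at 653, 637 and 539 at 3 months, a change of -0.52 (SE 0.33, edgeR adjusted p = 0.575). Rorb stood at 422, 358 and 467 at 18 months and at 489, 607 and 563 at 3 months, a change of -0.42 (SE 0.32, edgeR adjusted p = 0.605). Dropping the TMM factors moved the median of all genes in rods to 0.20, against -0.04 with them, and Crx to -0.28.

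Nr2e3 averaged 608 ± 121 normalised CPM in 18-month rods and 1040 ± 403 in 3-month rods (SD, n = 3 each), and the release 7.1.0 library at 3 months, at 605, lay among the old ones. Otx2 averaged 227 ± 42.7 at 18 months and 189.9 ± 22.0 at 3 months, and the ages overlapped. Samd11 averaged 495 ± 59.9 at 18 months and 457 ± 42.7 at 3 months, again with overlap. The log2 changes were -0.77 (SE 0.42) for Nr2e3, 0.27 (SE 0.30) for Otx2 and 0.12 (SE 0.31) for Samd11, with edgeR adjusted p of 0.574, 0.712 and 0.891.

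Thrb in rods had normalised CPM of 961, 734 and 654 at 18 months, against 851, 307 and 299 at 3 months. Within release 7.2.0 the ages were apart, while within release 7.1.0 they were 961 and 851. The log2 change was 0.70 (SE 0.49, edgeR adjusted p = 0.587), and 0.86 (SE 0.27, edgeR adjusted p = 0.0587) with the release term. In release 7.2.0 alone it was called, at 1.29 (edgeR adjusted p = 0.00909), with Nrl at -1.35 (edgeR adjusted p = 0.0172), among 1952 genes (16% of 12233, with 7.45% lower and 8.51% higher). Within cluster 1 Thrb stood at 696, 791 and 752 CPM at 18 months and at 494, 671 and 457 CPM at 3 months, and in cluster 12 at 111 and 108 CPM in 3-month replicates 2 and 3.

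Esrrb and Mef2d split by release and overlapped between the ages. Esrrb in rods had normalised CPM of 882, 215 and 228 at 18 months, against 748, 220 and 238 at 3 months, with replicate 1 highest in both. Its mean in release 7.1.0 was 3.62 times that in release 7.2.0. Mef2d stood at 539, 236 and 245 at 18 months and at 452, 237 and 231 at 3 months, 2.09 times as high in release 7.1.0. In rods 3 of 10 regulators (these 2 and Thrb) were higher without overlap in release 7.1.0, where 21.2% of genes were. Mef2d was higher there without overlap in 8 of 8 classes (1.49 to 2.60 times) and Esrrb in 5 of 8 (1.47 to 3.62 times in rods, cones, cone bipolar cells and Müller glia, with rod bipolar cells, whose nuclei were uneven between releases, as the other class). The shares of all genes higher there without overlap were 19.7% in cones, 19.9% in rod bipolar cells, 15% in cone bipolar cells, 22% in amacrine cells, 15.3% in horizontal cells, 25.6% in retinal ganglion cells and 14.6% in Müller glia. The release names the counting software in the file headers. Whether replicate 1 also differed in preparation or sequencing is not given, and these cannot be told apart. The log2 changes with age were 0.15 (SE 0.69) for Esrrb and 0.16 (SE 0.46) for Mef2d, and 0.05 (SE 0.23) and 0.11 (SE 0.22) with the release term.

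**Figure D4:**
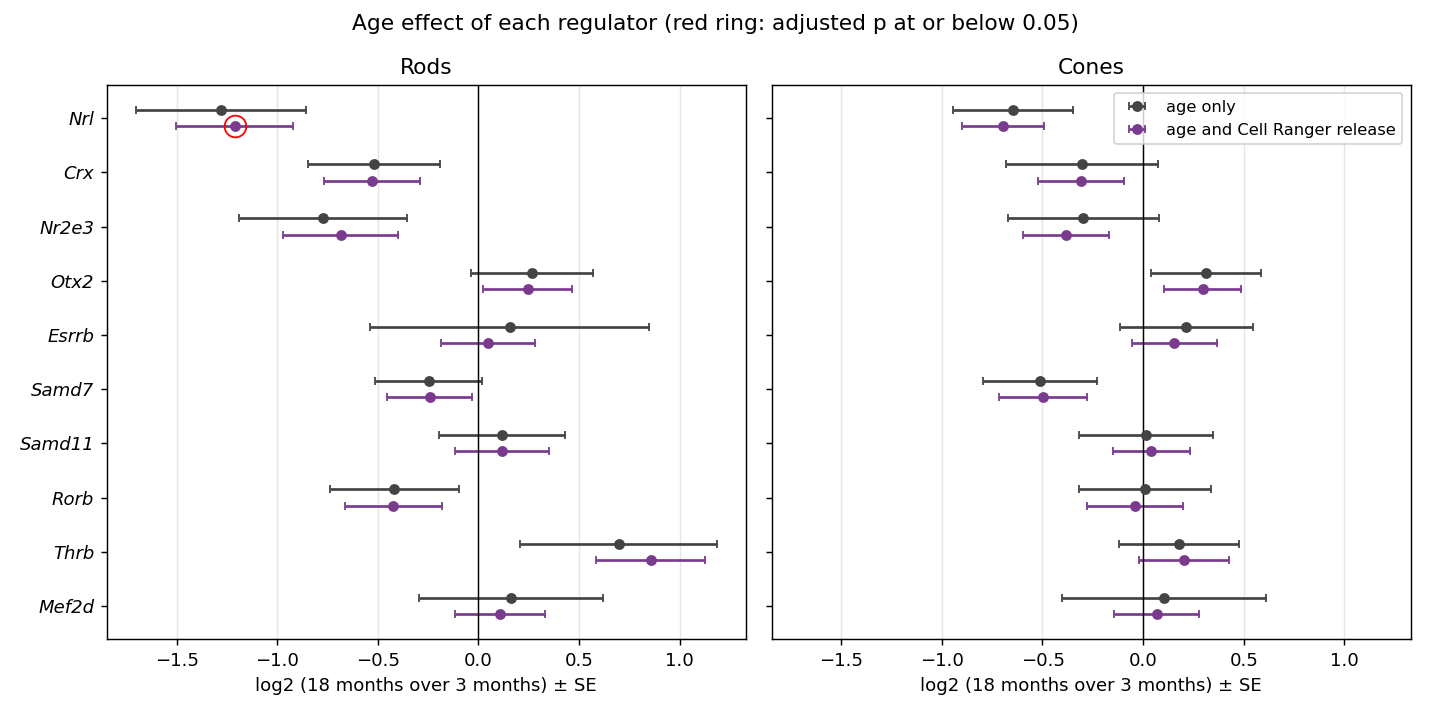
Log2 change of each regulator, 18 months over 3 months, in rods and cones with its standard error, from edgeR with age as the only term (grey) and with a term for the Cell Ranger release (purple). The standard error was derived from the F statistic of the test. A red ring marks an adjusted p at or below 0.05 over all genes of the class. The ring stands on Nrl in rods with the release term, at -1.21.

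In cones none of the 10 regulators was called, and 0% of 8286 genes were (124 at an unadjusted p under 0.05, and 0 by DESeq2). Nrl and Samd7 were lower at 18 months without overlap, 2 of 10 regulators against 3.31% of genes (3.55% were higher without overlap). Samd7 had normalised CPM of 79.8, 92.1 and 92.8 at 18 months, against 109.9, 132 and 133 at 3 months, a log2 change of -0.51 (SE 0.28). Its largest share of cone nuclei with a UMI was 5.48% after thinning to 500 UMIs, so each cone value rests on few molecules (285 UMIs in all). Nrl stood at 269.6, 422 and 476 at 18 months and at 557, 629 and 619 at 3 months, with a change of -0.65 (SE 0.30). Thrb, whose mean was highest in cones, stood at 1135, 1207 and 812 at 18 months and at 1152, 911 and 739 at 3 months, which overlapped, with a change of 0.18 (SE 0.30). Crx stood at 686, 430 and 255 at 18 months and at 754, 479 and 496 at 3 months, with replicate 1 highest at each age.

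Whether rods and cones differed in their age effect was tested in 1 model with a term per library. No gene of 10128 passed (0% called, 582 at an unadjusted p under 0.05, and 0 with the size factors of DESeq2). Thrb had the largest difference among the 10, at 0.69 (SE 0.33, edgeR adjusted p = 0.831), and Nrl differed by -0.47 (SE 0.33, edgeR adjusted p = 0.838). Without 3-month replicate 1 the count was 39 genes, and Thrb stood at 0.997 (edgeR adjusted p = 0.0735).

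No regulator was higher at 18 months without overlap in any of the 8 classes. The shares of all genes that were, beside the rod and cone ones, were 1.85% in rod bipolar cells, 3.49% in cone bipolar cells, 4.35% in amacrine cells, 4.93% in horizontal cells, 4.03% in retinal ganglion cells and 4.66% in Müller glia. In these 6 classes no regulator was called, where 1 gene (0.0188% of 5315, in horizontal cells) and 0% of the genes of the rest passed. DESeq2 called 57 genes in these classes, none of them a member, and 7 to 313 genes a class had an unadjusted p under 0.05 in edgeR. In Müller glia Nrl, Nr2e3 and Samd7 were lower at 18 months without overlap, 3 of 10 against 3.98% of genes. Nrl had normalised CPM of 176, 214 and 194 at 18 months, against 409, 455 and 489 at 3 months (log2 change -1.21, SE 0.27, edgeR adjusted p = 0.825). All 3 are genes whose mean was highest in rods, and the part of free rod RNA in these values was not tested. In horizontal cells Otx2 had normalised CPM of 25.3, 68.6 and 76.2 at 18 months, against 38.4, 17.7 and 11.04 at 3 months, from 65 UMIs in all. It overlapped, with a change of 1.41 (SE 0.54, edgeR adjusted p = 0.774), and it was called in release 7.2.0 alone, at 2.34 (edgeR adjusted p = 0.0301), where 2.55% of genes were.

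Genes that the network acts on were listed from textbook knowledge, but with earlier results of these data known. The counts from these lists are therefore not independent of these data. Of 35 rod genes under NRL and CRX, 33 had a lower mean at 18 months in rods, and their median log2 change was -1.04, beside -0.04 for all genes. None of the 35 passed with age alone. With the release term 16 passed, all lower, beside 5.83% of all genes lower. Drd4, a dopamine receptor gene of photoreceptors, averaged 186 ± 99.6 normalised CPM in 18-month rods and 661 ± 372 in 3-month rods (SD, n = 3 each; log2 change -1.65, edgeR adjusted p = 0.0106 with the release term), and the ages overlapped. Rbp3, the retinoid carrier of the space around the outer segments, averaged 599.7 ± 136 at 18 months and 1764 ± 259 at 3 months (-1.55, edgeR adjusted p = 0.0165). Reep6, which shapes rod membranes, averaged 254 ± 46.2 at 18 months and 781 ± 358 at 3 months (-1.52, edgeR adjusted p = 0.0169). In cones 33 of these 35 rod genes were again lower, with a median of -0.53, beside -0.03 for all genes, and none passed. The 18-month and 3-month libraries are the same ones in both classes, and free RNA can enter both.

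Genes listed as cone genes held low in rods by NR2E3 and the polycomb partners went in both directions in rods. Of 21, 17 were measured there, 10 lower and 7 higher, with a median of -0.28, and 0 passed with age alone. The list is mixed: Grk1 also stands in the rod list above, and Guca1a and Grk1 had its highest mean CPM in rods. Guca1a averaged 1392 ± 468 normalised CPM in 18-month rods and Grk1 403 ± 107. Both are among the 10 lower, so these counts do not measure repressed cone genes alone. With the release term 2 passed in each direction, beside 5.83% of all genes lower and 2.99% higher. Pde6h, the inhibitory subunit of the cone phosphodiesterase, averaged 160 ± 107 normalised CPM in 18-month rods and 443 ± 248.5 in 3-month rods (edgeR adjusted p = 0.0165 with the release term). Gngt2, a cone transducin subunit, averaged 88.2 ± 44.1 at 18 months and 237 ± 126 at 3 months (edgeR adjusted p = 0.0165). Cngb3, a subunit of the cone cyclic nucleotide-gated channel, was called higher, at 71.4 ± 44.1 at 18 months and 26.0 ± 4.88 at 3 months (edgeR adjusted p = 0.0348), while the release 7.1.0 libraries stood at 28.7 at 18 months and 29.4 at 3 months. Smug1, a uracil DNA glycosylase, was higher too, at 133 ± 44.0 at 18 months and 71.9 ± 31.8 at 3 months (edgeR adjusted p = 0.0280). The ages overlapped in all 4 of these genes on normalised CPM. Of 20 polycomb partners of SAMD7 and SAMD11, 17 were measured in rods and 0 passed under age alone or with the release term, with a median of 0.14 under age alone. Phc2, a polyhomeotic subunit gene named for its mean CPM, averaged 152 ± 51.9 normalised CPM in 18-month rods and 130.2 ± 27.5 in 3-month rods.

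Of 26 other photoreceptor regulators, 21 were measured in rods and none passed with age alone (median -0.18). With the release term 3 were called lower and 2 higher, beside 5.83% of all genes lower and 2.99% higher. Neurod1, a proneural factor kept on in photoreceptors, averaged 231 ± 103 normalised CPM in 18-month rods and 506 ± 304 in 3-month rods (edgeR adjusted p = 0.0348 with the release term). Rax, a retinal homeobox gene, averaged 86.2 ± 35.9 at 18 months and 188 ± 56.5 at 3 months (edgeR adjusted p = 0.0392). Prdm1, which separates the photoreceptor from the bipolar fate, averaged 40.5 ± 23.8 at 18 months and 88.1 ± 83.3 at 3 months (edgeR adjusted p = 0.0368), with replicate 1 the highest library of each age. Rarb, a retinoic acid receptor gene, was higher, at 90.9 ± 19.0 at 18 months and 51.4 ± 41.5 at 3 months (edgeR adjusted p = 0.0334). The ages overlapped in all 4 of these genes too. In cones 0 of the 19 measured passed under either model.

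The genes whose mean log2(CPM + 10) ran most like each regulator over the 8 classes were found by Pearson's r, as a description across classes that share libraries and free RNA. For Nrl they included the ribosomal protein genes Rps9 and Rps18 (r = 0.999 each). For Nr2e3 they were Rplp0, another ribosomal gene, Spint2 and Scp2. For Samd7 they were the photoreceptor genes Tulp1 and Sag, with Hadhb (r = 0.996 to 0.997), for Samd11 Serbp1, Cngb1 and Ppp1r42, and for Crx Ano2, Apeh and Ankrd33b (r = 0.994 to 0.997). Otx2 ran most like Snx17, Klc3 and Plk5, and Mef2d like Apeh, Bola1 and Tbc1d8. Rorb had the loosest matches, Lmo4 (r = 0.974), Ankrd10 (0.954) and Vat1l (0.952). Thrb ran most like Zfpl1 (r = 0.982), Mms19 and Gpr108, and Esrrb like Zscan29 (r = 0.987), Alkbh7 and Ppdpf.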

How the data were processed

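The authors deposited raw UMI counts per gene and barcode, made with Cell Ranger 7.1.0 or 7.2.0 per the file headers, on mm10, with Seurat also used, per the submitters' processing notes. No library held a barcode under 500 UMIs, so a limit had been applied before deposit. Nuclei were kept with at least 300 genes and at most 5% mitochondrial UMIs (55230 of 62893 barcodes). Scrublet's own calls marked at most 1 nucleus per library, so the nuclei of highest score were removed instead, in a share that grew with the nuclei of the library (4989 nuclei). The rest were clustered in scanpy 1.11.5 (2000 variable genes without the members, 30 components, 15 neighbours, Leiden resolution 1, leidenalg 0.10.2) without integration. Of 32 clusters, 25 were named, each with at least 3 markers above a log2 fold of 1 and no unrelated class at 3 markers and 25% as well. A cluster with more nuclei marked as an unrelated class stayed unnamed. These naming settings were set after the clusters were seen. The members, lists and markers were chosen with earlier results of these data known.

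Counts were summed per library and class and tested with edgeR 4.0.16 (age as the only term, TMM, filterByExpr, Benjamini-Hochberg adjusted p at or below 0.05; R 4.3.3, limma 3.58.1), which was checked on simulated data. The edgeR test gives no SE, so each SE is the absolute log2 change divided by the square root of its F statistic. The release, the replicate block, DESeq2 1.42.0, other size factors, filters, clusterings and left-out libraries were alternatives. The replicate block paired libraries by number, which the labels do not give. In rods the deviations of same-numbered libraries correlated at 0.591, 0.512 and 0.103. Of the pairs of different number, 2 also correlated positively (0.444 and 0.148), so these values do not settle a pairing. In cones the same-numbered correlations were 0.578, 0.328 and 0.039. The exact permutation test of rods against cones was adjusted over all genes compared. All 10 members are named, with up to 4 called genes per other list, or the 3 of highest level where none was called, not all of which are given. Likeness was ranked over 8 classes. A few results are not reported here.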

Additional observations from a re-analysis of the deposited data

How the results depend on the processing

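The count of genes called in rods, 0 with age as the only term, was 6 with DESeq2, 2 without the low-count filter, 757 with the replicate block, 1012 with the release term, 1952 in release 7.2.0 alone, 7 in rods of cluster 1 alone and 0 to 1 with a library left out. Regulators called in rods numbered 1 with the block and 1 with the release term (Nrl), and 2 in release 7.2.0 alone (Nrl and Thrb). In cones 22 genes were called without the filter. In the other classes, with 1 gene called, the count was 57 with DESeq2, 365 without the filter, 172 in release 7.2.0 alone (1 regulator, Otx2 in horizontal cells), 13 with the release term, 20 with the block and 0 at Leiden resolution 2, with nuclei classed one by one and without doublet removal. It was 0 to 139 with a library left out, and 139 without 18-month replicate 1. The count for the rod and cone difference was 2 without the filter and 0 to 39 with a library left out. Each cause was not tested. Nrl in rods stayed negative in every alternative run, from -0.41 in cluster 1 alone, the setting that moved it most, to -1.52 without doublet removal.

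Small effects changed sign. In cones Mef2d was -0.012 in release 7.2.0 alone and -0.60 to 0.68 with a library left out, Rorb -0.15 with nuclei classed one by one, -0.042 with the release term, -0.0495 with the block and -0.33 to 0.23 with a library left out, and Samd11 -0.087 at resolution 2, -0.40 by nucleus, -0.079 without doublet removal and -0.14 to 0.27 with a library left out. Left-out libraries gave -0.044 to 0.47 for Esrrb and -0.56 to 0.094 for Nr2e3 in cones. In rods Esrrb was -0.043 in cluster 1 and -0.87 to 1.03 with a library left out, Mef2d -0.021 by nucleus and -0.37 to 0.62, Samd11 -0.062 by nucleus and -0.30 in cluster 1, and Samd7 0.0013 on library size alone. Between rods and cones, Mef2d was -0.0018 at resolution 2, -0.17 by nucleus and -0.11 to 0.094 with a library left out, Otx2 -0.0297 by nucleus, and Crx -0.013 to 0.18 with a library left out. The cluster 1 and library-size settings were chosen after seeing the data. Rod bipolar cells without doublet removal were not run, with 3 nuclei in a library. With 5 libraries the exact test of rods against cones cannot reach 0.05. Levels in classes of few nuclei rest on few UMIs: cones of 18-month replicate 3 held 85486 in all.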
